A study of Mus musculus with 46 samples.

Results

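Whole-lung RNA of Nrf2 mutant mice kept for 48 h in 100% oxygen was compared with that of wild type mice kept for 48 h in 100% oxygen. The comparison holds every array labelled with 1 of these 2 groups, which is 12 of the 46 arrays of the series. Each group had 2 samples, replicates 1a and 1b, and RNA of each was measured on 3 types of oligonucleotide array, which are named A, B and C by their titles. The remaining arrays cover both genotypes at 0, 24 and 72 h. Neither the strain, age and sex of the mice nor the kind of Nrf2 mutation is stated in the labels. They also do not say whether replicates 1a and 1b are separate animals. The p-values therefore measure only the spread between such replicates, pooled over all genotypes and times of an array type.

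The gene Nfe2l2 encodes Nrf2, which is held in the cytoplasm by KEAP1 and degraded until oxidants or electrophiles modify KEAP1. As a transcription factor it then enters the nucleus, pairs with a small MAF protein and binds antioxidant response elements near genes of glutathione metabolism, detoxification and NADPH supply. Breathing nearly pure oxygen injures the endothelium and epithelium of the lung, fills the airspaces with fluid and draws in neutrophils, and mice that lack Nrf2 are known to be more sensitive to it.

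Deposited intensities are scaled alike on all arrays. A log2 difference below is the mutant minus the wild type mean of log2(intensity + an added value), with its SE from limma. The added value (78.5, 126 and 106 intensity units on A, B and C) keeps dim probe sets from dominating, and folds taken from these differences understate those of dim genes. A probe set was called at a Benjamini-Hochberg adjusted p under 0.05 over all 26821 probe sets tested. Replicates of the mutant correlated at r = 0.965, 0.955 and 0.915 on A, B and C at 48 h, and those of wild type at r = 0.972, 0.959 and 0.915. Gapdh probe sets at the 3′ and the 5′ end of the transcript had similar signal, with ratios of 0.999 to 1.27 over the mutant samples and of 0.984 to 1.24 over the wild type samples. Lung markers were bright in both genotypes, among them Sftpc (17030 and 11870 in the mutant, 10870 and 14530 in wild type), Ager (23000 and 15950 against 16750 and 16410) and Scgb1a1 (30470 and 20620 against 21260 and 30130). Mutant arrays at 0 h had higher Gapdh ratios, 1.82 on A, 1.952 and 1.672 on B, and 1.855 and 2.258 on C. Within each array type they also had the lowest mean r to the rest (0.8556 on A, 0.8267 to 0.8577 on B and C). All mutant values at 0 h given below carry this reserve.

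At 48 h, 101 of the 26821 probe sets were called (0.377%), 32 higher in the mutant (0.119%) and 69 lower (0.257%). All 101 had mutant arrays that did not overlap the wild type arrays, and 91 differed by more than 1 on the log2 scale. At an unadjusted p under 0.05 there were 2419. The calls draw on a spread shared with the other groups, and fewer were made with only the 48 h groups fitted. Where a gene is counted once, by its brightest probe set on the first array type that measures it, 24 of 13404 genes were called higher (0.179%) and 48 lower (0.358%). Without overlap between the groups, and whatever their p, 21.8% of all genes were higher in the mutant and 22.1% were lower. Every count without overlap given below is to be read beside these shares. The median over all genes was log2 -0.0034. Calls depend on having both samples of each group: 24 of the 101 stayed called whichever of the 4 samples was left out, 21 of them lower and 3 higher, and 49 were lost whichever was left out.

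Nfe2l2 (NCBI gene 18024) spans 75675513 to 75704663 of chromosome 2 on GRCm38.p6. It had an intensity of 388 and 404 in the mutant and of 3338 and 4488 in wild type. Both mutant samples lay far below both wild type samples, a difference of log2 -3.06 ± 0.21 (adjusted p = 0.000174), or 8.33-fold lower. The difference was of similar size at 24 h (log2 -3.00 ± 0.25) and at 72 h (log2 -3.17 ± 0.21). No source used here places its probes inside or outside the mutated stretch. None of the 8 tested partners and regulators of NRF2 was called, with 3 lower and 1 higher without overlap (median log2 -0.19). The repressor Bach1, which competes for the same DNA element, gave 727 and 2083 in the mutant against 3664 and 4134 in wild type, so the 2 mutant samples differed widely (log2 -1.59 ± 0.43, adjusted p = 0.22).

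Among 28 tested neighbours of Nfe2l2 on chromosome 2, 1 was called. The labels do not say whether the locus was targeted, and whether neighbouring DNA differs between the genotypes was not tested. The called neighbour was Cwc22, a splicing factor gene (chromosome 2, 77881159 to 77946356), with 143 and 225 in the mutant against 590 and 604 in wild type on array A. A second probe set, on array C, gave 77.8 and 41.6 in the mutant against 2479 and 2264 in wild type (log2 -3.91 ± 0.37, adjusted p = 0.000392), and stayed called whichever sample was left out. Both other probe sets of Cwc22 on array C were not called (log2 -0.61 and -0.13), so the size of its difference depends on the probe set. Xaf1, an interferon-induced antagonist of the apoptosis inhibitor XIAP, lies on chromosome 11 (72301461 to 72313733). Its signal was 125 and 110 in the mutant and 3398 and 4491 in wild type (log2 -4.17 ± 0.37, adjusted p = 0.000287), and it was lower by log2 -4.95 at 24 h and -5.17 at 72 h. At 0 h Xaf1 was low in both genotypes, with 222 and 127 in the mutant and 87.0 and 92.3 in wild type. Xaf1 was the 1 called gene of 31 tested interferon-induced genes, whose median was log2 -0.04.

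Promoters of genes with lower signal in the mutant are shown because antioxidant response elements are read from sequence. The windows run from 250 bases before to 50 bases after a RefSeq gene start on GRCm38.p6, 5′ to 3′ on the gene's strand, and capitals mark a match to TGACNNNGC on either strand. Gsta3 (chr1:21240335-21240634, plus strand) has 1 annotated start and a match 121 to 113 bases before it. Txnrd1 (chr10:82858956-82859255, plus strand) has a match on the opposite strand 92 to 84 bases before 1 of its 3 starts. Gpx2 (chr12:76795505-76795804, minus strand) was lower as well, and no match lies in its window.
Gsta3: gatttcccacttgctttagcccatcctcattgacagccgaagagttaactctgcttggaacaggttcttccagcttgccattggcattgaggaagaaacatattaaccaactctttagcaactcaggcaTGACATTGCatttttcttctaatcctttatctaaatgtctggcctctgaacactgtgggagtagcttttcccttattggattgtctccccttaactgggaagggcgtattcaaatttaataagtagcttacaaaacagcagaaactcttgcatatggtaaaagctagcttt
Txnrd1: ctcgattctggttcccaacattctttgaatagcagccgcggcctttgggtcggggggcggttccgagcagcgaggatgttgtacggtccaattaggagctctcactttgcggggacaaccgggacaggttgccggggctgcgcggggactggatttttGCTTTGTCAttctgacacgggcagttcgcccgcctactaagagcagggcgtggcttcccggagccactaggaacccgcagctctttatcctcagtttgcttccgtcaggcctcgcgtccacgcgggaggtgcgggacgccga
Gpx2: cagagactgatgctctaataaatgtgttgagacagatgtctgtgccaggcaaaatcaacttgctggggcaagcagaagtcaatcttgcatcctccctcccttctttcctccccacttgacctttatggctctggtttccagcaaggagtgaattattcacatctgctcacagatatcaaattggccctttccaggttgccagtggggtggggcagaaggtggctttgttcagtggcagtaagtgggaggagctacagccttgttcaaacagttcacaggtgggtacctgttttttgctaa
Of 52 genes called lower by any probe set, 42 were in the promoter table, and 7 of these held a match (16.7%). Of 28 called higher, 19 were in the table and 4 held a match (21.1%). Over all 27025 genes of the table, 3781 did (14.0%), or 12.4% of its 32851 windows. A match is only a description of the window, and its absence says nothing of the factor.

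Gpx2, alpha-class glutathione transferases, carboxylesterases and aldehyde oxidising enzymes led the genes of glutathione metabolism and detoxification that were lower in the mutant than in wild type. The epithelial glutathione peroxidase gene Gpx2 gave 555 and 525 in the mutant and 3296 and 2842 in wild type, 5.08-fold lower (log2 -2.34 ± 0.18, adjusted p = 0.000287), and stayed called whichever sample was left out. At 0 h Gpx2 had 637 on the 1 mutant array, whose Gapdh ratio was 1.82, and 1458 and 1836 in wild type. It was the 1 called member of 12 tested genes of glutathione synthesis and cystine uptake, 6 of which were lower without overlap (median log2 -0.30). In whole-lung RNA, fewer cells that express a gene and less of its RNA per cell cannot be told apart. Gclc and Gclm, the catalytic and modifier subunits of the rate-limiting enzyme of glutathione synthesis, were not called. Gclc gave 1504 and 1651 in the mutant against 2502 and 2618 in wild type (log2 -0.67 ± 0.19, adjusted p = 0.24), without overlap. Gclm gave 556 and 873 in the mutant against 780 and 1192 in wild type, and the groups overlapped (log2 -0.43 ± 0.28, adjusted p = 0.729). The cystine transporter Slc7a11 had 195 and 317 in the mutant and 472 and 465 in wild type (log2 -0.66, adjusted p = 0.297).

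Of 19 glutathione transferase genes, which conjugate glutathione to electrophiles, 3 were called lower and 0 higher. Without overlap 13 were lower (median log2 -0.38), against 22.1% of all genes. Gsta2 had 384 and 370 in the mutant and 1273 and 1569 in wild type (log2 -1.71 ± 0.19, adjusted p = 0.00356). Gsta3 had 186 and 374 in the mutant and 1636 and 835 in wild type (log2 -1.85 ± 0.31, adjusted p = 0.0346), with an uneven pair in each genotype. Gsta4, which conjugates the lipid peroxidation product 4-hydroxynonenal, had 319 and 468 in the mutant and 882 and 1104 in wild type (log2 -1.19 ± 0.20, adjusted p = 0.0412). Gstp1 was bright in both, at 6690 and 6512 in the mutant against 11000 and 10770 in wild type, and was not called (log2 -0.72 ± 0.15, adjusted p = 0.0858). Leaving out 1 sample raised the adjusted p to as much as 0.0642 for Gsta2, 0.222 for Gsta3 and 0.299 for Gsta4, whose call was lost in all 4 cases. The list held 1 called gene without mutant 1a, without wild type 1a, without wild type 1b or with no filter on dim probe sets.

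Among 18 quinone, carbonyl and aldehyde enzymes, 12 were lower without overlap (median log2 -0.34) and 1 was called lower. It was Aldh1a7, a cytosolic aldehyde dehydrogenase of rodents, with 571 and 613 in the mutant against 2330 and 2251 in wild type, 3.54-fold lower (log2 -1.82 ± 0.19, adjusted p = 0.00226), and called whichever sample was left out. The aldehyde oxidase Aox3, which is on no list and was chosen after its values were seen, had 959 and 933 in the mutant and 3541 and 3354 in wild type (log2 -1.74 ± 0.18, adjusted p = 0.000727). Its relative Aox1 had 177 and 186 in the mutant against 977 and 727 in wild type, a difference of the same size that was not called (log2 -1.83 ± 0.35, adjusted p = 0.0668). Nqo1, a quinone reductase and a common readout of NRF2 activity, was dim on these arrays, with 54.9 and 108 in the mutant and 196 and 220 in wild type on its brighter probe set (log2 -0.86 ± 0.19, adjusted p = 0.108). A dimmer probe set of Nqo1 gave 20.6 and 11.6 in the mutant against 127 and 169 in wild type, all below the filter value of 196 for array A, and was called (log2 -1.25 ± 0.17, adjusted p = 0.0103).

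Carboxylesterases, which hydrolyse esters and amides of drugs and lipids, were lower as well. Of 11 carboxylesterases and export pumps, 3 were called lower, all carboxylesterases (median log2 -0.24). Ces1d was bright, with 4763 and 3872 in the mutant against 9837 and 9968 in wild type (log2 -1.19 ± 0.16, adjusted p = 0.0103). Ces1f had 70.4 and 15.1 in the mutant, against 575 and 634 in wild type (log2 -2.13 ± 0.19, adjusted p = 0.000287), and was called whichever sample was left out. Ces1g had at most 45.3 in the mutant against 277 and 290 in wild type (log2 -1.70 ± 0.20, adjusted p = 0.00479). The mutant signal of Ces1f and Ces1g lay below the filter value, so no fold is given. These genes lie close together on chromosome 8 and resemble each other, and probe sets disagreed: a bright one of Ces1g on array B gave log2 0.0073, and one of Ces1d on array C gave log2 0.50. With 1 sample left out the adjusted p reached 0.111 for Ces1d and 0.068 for Ces1g. The list had 1 called gene without mutant 1b, wild type 1a or wild type 1b.

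Of 16 thioredoxin, peroxiredoxin and other antioxidant genes, 2 were called lower and 0 were called higher (median log2 -0.15). Txnrd1, the cytosolic thioredoxin reductase, had 952 and 995 in the mutant and 2015 and 2340 in wild type, 2.14-fold lower (log2 -1.10 ± 0.17, adjusted p = 0.0278), but lost its call whichever sample was left out (adjusted p up to 0.238). Osgin1, an oxidative stress induced growth inhibitor, had 36.3 and 47.7 in the mutant and 389 and 433 in wild type (log2 -1.67 ± 0.19, adjusted p = 0.00155), and kept its call. With any 1 sample left out, 1 gene of the list was called. The 6 enzymes of NADPH supply all had a negative difference, 4 without overlap and 0 called (median log2 -0.41). The largest was that of Pgd, an enzyme of the pentose phosphate pathway, with 1872 and 1544 in the mutant against 3960 and 3628 in wild type (log2 -1.12 ± 0.23, adjusted p = 0.085).

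Iron and heme genes went both ways. Of 15 tested, 1 was called lower and 1 was called higher (median log2 -0.35). The iron exporter Slc40a1 had 974 and 929 in the mutant and 2397 and 2148 in wild type, 2.22-fold lower (log2 -1.15 ± 0.17, adjusted p = 0.0109). Lcn2, lipocalin 2, which binds bacterial siderophores, had 4904 and 5147 in the mutant and 2218 and 1608 in wild type (log2 1.37 ± 0.24, adjusted p = 0.049), while its other probe set was not called (log2 -0.27). Hmox1, heme oxygenase 1, gave 4319 and 3152 in the mutant and 5244 and 5112 in wild type and was not called (log2 -0.48 ± 0.24, adjusted p = 0.601). Both calls were lost whichever sample was left out (adjusted p up to 0.124 for Slc40a1 and 0.328 for Lcn2). The metallothioneins Mt1 and Mt2, which bind zinc and copper, were not called (log2 -0.30 and -0.06).

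The smallest p of the whole comparison belonged to a probe set of array A that the annotation assigns to 2 cytochrome P450 genes, and whose signal cannot be given to either. Cytochromes P450 oxidise drugs, toxins and lipids. It was chosen after its values were seen, and it had 589 and 725 in the mutant against 6659 and 7142 in wild type, 9.52-fold lower (log2 -3.25 ± 0.16, adjusted p = 3.08e-05). The groups lay far apart, and it stayed called whichever sample was left out. Its difference was log2 -1.94 at 24 h and -2.39 at 72 h. Lists count only probe sets with 1 symbol, so it is in none of them, and of the 9 cytochrome P450 genes tested that way 0 were called (median log2 -0.45).

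**Figure D1:**
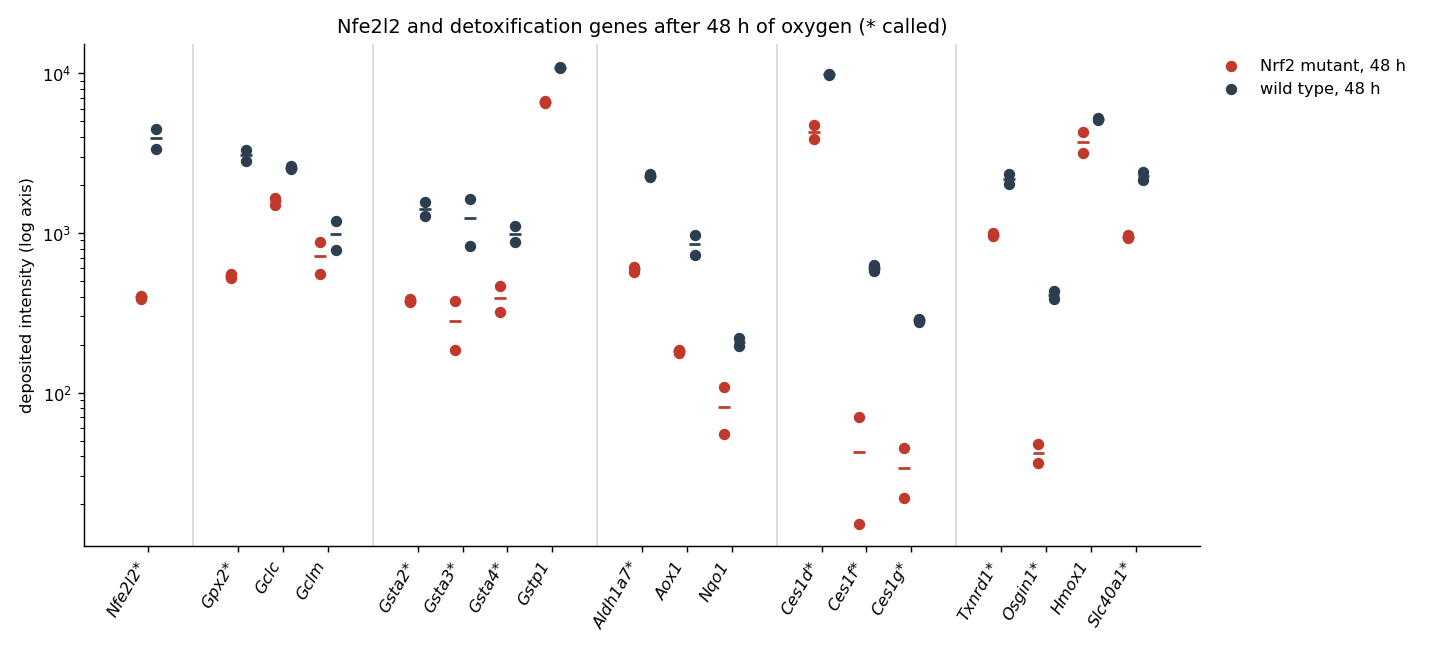
Deposited intensity (log axis) of Nfe2l2 and detoxification genes on each array after 48 h of oxygen, Nrf2 mutant at the left (red) and wild type at the right (dark) of each gene; points are arrays, short lines are means of 2 arrays and a star marks a called gene. In Gpx2 the mutant arrays are at 555 and 525 and the wild type arrays at 3296 and 2842, while the pairs of Gclm overlap.

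Genes of neutrophils formed the largest group of calls. Of 19 tested neutrophil genes, 9 were called lower, 1 was called higher (Lcn2) and 9 were not called. Without overlap, 16 were lower (median log2 -1.12). S100a8 and S100a9 encode the 2 chains of calprotectin, the most abundant protein of neutrophil cytosol. S100a8 had 1635 and 1561 in the mutant and 9822 and 9647 in wild type, 5.86-fold lower (log2 -2.55 ± 0.15, adjusted p = 6.36e-05). S100a9 had 949 and 701 in the mutant and 4165 and 4758 in wild type, 5.06-fold lower (log2 -2.34 ± 0.20, adjusted p = 0.000585). The replicates of each genotype lay close together, and both genes were called whichever sample was left out.

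The gelatinase and collagenase that neutrophils carry in their granules were lower too. Mmp8 had 114 and 58.9 in the mutant and 826 and 1430 in wild type (log2 -2.84 ± 0.34, adjusted p = 0.00532). Mmp9 had 428 and 169 in the mutant and 1447 and 1416 in wild type (log2 -2.09 ± 0.30, adjusted p = 0.0151). A second probe set of Mmp9, on array C, overlapped between the groups and was not called (log2 -0.49, adjusted p = 0.88). Mmp8 and Mmp9 were the called 2 of 23 tested matrix proteases and inhibitors, whose median was log2 -0.0087. Surface receptors of neutrophils followed. Clec4d, a C-type lectin, had 141 and 135 in the mutant against 1358 and 788 in wild type (log2 -2.37 ± 0.24, adjusted p = 0.00167). Cxcr2, the receptor for neutrophil-attracting CXC chemokines, had 56.0 and 136 in the mutant against 519 and 481 in wild type (log2 -1.77 ± 0.26, adjusted p = 0.0179). The decoy interleukin 1 receptor Il1r2 had 226 and 210 in the mutant against 948 and 1177 in wild type (log2 -1.94 ± 0.32, adjusted p = 0.0339), and a second probe set gave log2 -1.87 ± 0.18 (adjusted p = 0.00155).

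The chemokine receptor Ccr1 (log2 -1.23 ± 0.18, adjusted p = 0.0179) and the selectin ligand Selplg (log2 -0.87 ± 0.15, adjusted p = 0.0444) complete the called members. Csf3r, the receptor for granulocyte colony stimulating factor, shows how far probe sets can part. Its brightest probe set gave 1783 and 1325 in the mutant against 1884 and 1915 in wild type, and was not called (log2 -0.29). A second gave 363 and 445 in the mutant against 2451 and 2340 in wild type (log2 -2.36 ± 0.15, adjusted p = 0.000139), and another gave log2 -2.43 ± 0.19. Of the called members, S100a8, S100a9 and Clec4d kept their calls whichever sample was left out, and so did the second probe sets of Il1r2 and Csf3r. With 1 sample left out, 3 to 6 members of the list were called, 5 without mutant 1a, 6 without mutant 1b, 4 without wild type 1a and 3 without wild type 1b. Over the 19 genes the summed intensity was 40470 and 40160 in the mutant and 65270 and 63800 in wild type.

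Not every neutrophil gene moved this way. The granule protein genes Camp (631 and 532 in the mutant against 848 and 826 in wild type), Elane (269 and 413 against 403 and 459) and Ltf (1233 and 1538 against 1059 and 930) were not called (log2 -0.48, -0.30 and 0.44). These genes are transcribed mainly in bone marrow precursors, while circulating neutrophils carry their proteins. Whether that bears on the values here was not tested.

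A few cytokine and chemokine genes were lower as well, while their lists did not lie on the lower side. The cytokine Il1b had 316 and 375 in the mutant and 1049 and 1237 in wild type, 2.88-fold lower (log2 -1.53 ± 0.17, adjusted p = 0.00356). Ccl9, a CC chemokine of mice that binds CCR1, had 1336 and 1330 in the mutant and 4503 and 4730 in wild type, 3.33-fold lower (log2 -1.73 ± 0.25, adjusted p = 0.0152). Leaving out 1 sample took the adjusted p to at most 0.0642 for Il1b and 0.15 for Ccl9. Il1b and Il1r2 were the called 2 of 27 tested cytokines and receptors (median log2 0.07), and Ccl9 the called 1 of 20 chemokines (median log2 0.19).

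Not all inflammatory mediators were lower. Il6 had 153 and 187 in the mutant and 56.3 and 12.0 in wild type, all below the filter value (log2 1.17 ± 0.23, adjusted p = 0.0667). Cxcl1, a chemokine for neutrophils, had 1067 and 934 in the mutant against 633 and 473 in wild type (log2 0.78 ± 0.18, adjusted p = 0.135). Neither was called, and both had mutant samples above both wild type samples, the opposite side from the neutrophil genes.

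Macrophage genes did not move as a group. Of 28 tested, 1 was called lower, and the median was log2 -0.05. Without overlap 6 were higher and 9 lower, against 21.8% and 22.1% of all genes. The called gene was Marco, a scavenger receptor for particles and bacteria, with 282 and 226 in the mutant against 1105 and 853 in wild type, 3.17-fold lower (log2 -1.66 ± 0.17, adjusted p = 0.00199). It kept its call whichever sample was left out, and was also lower at 24 h (log2 -1.18) and 72 h (log2 -1.43). F13a1, the A chain of coagulation factor XIII, which monocytes and macrophages make, had 448 and 372 in the mutant against 1763 and 1766 in wild type, 3.54-fold lower (log2 -1.82 ± 0.20, adjusted p = 0.00126). It was the called 1 of 21 coagulation and fibrinolysis genes (median log2 0.0064). The summed intensity of 23 macrophage genes on array A was 79060 and 80060 in the mutant and 85720 and 93840 in wild type, that of 14 T and NK cell genes 4229 and 4013 against 4043 and 4103, and that of 13 B cell and immunoglobulin genes 9776 and 9661 against 8017 and 8567. Their part in the differences was not tested. None of 13 MHC class II and antigen presentation genes was called (median log2 0.32), and 7 were higher without overlap.

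Further called genes known from leukocytes were lower in the mutant. Ifitm6, an interferon-induced transmembrane protein gene of myeloid cells, had 342 and 427 in the mutant against 1885 and 2001 in wild type, 4.38-fold lower (log2 -2.13 ± 0.17, adjusted p = 0.000287). Slfn1, of the schlafen family, had 353 and 324 in the mutant against 1612 and 1644 in wild type (log2 -2.03 ± 0.26, adjusted p = 0.00827). Chosen after their values were seen, the platelet-activating factor hydrolase gene Pla2g7 (log2 -1.50 ± 0.16), the toll-like receptor gene Tlr13 (log2 -1.27 ± 0.15), the cytokine receptor chain gene Csf2rb (log2 -1.21 ± 0.16), the NADPH oxidase subunit gene Ncf4 (log2 -0.95 ± 0.16) and the 5-lipoxygenase activating protein gene Alox5ap (log2 -0.86 ± 0.16) were also called lower. Ifitm6, Pla2g7 and Tlr13 kept their calls whichever sample was left out, Csf2rb was called in 1 of the 4 cases, and Ncf4 and Alox5ap in 0 (adjusted p up to 0.265 and 0.354). The adjusted p of Slfn1 then rose to as much as 0.0914.

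**Figure D2:**
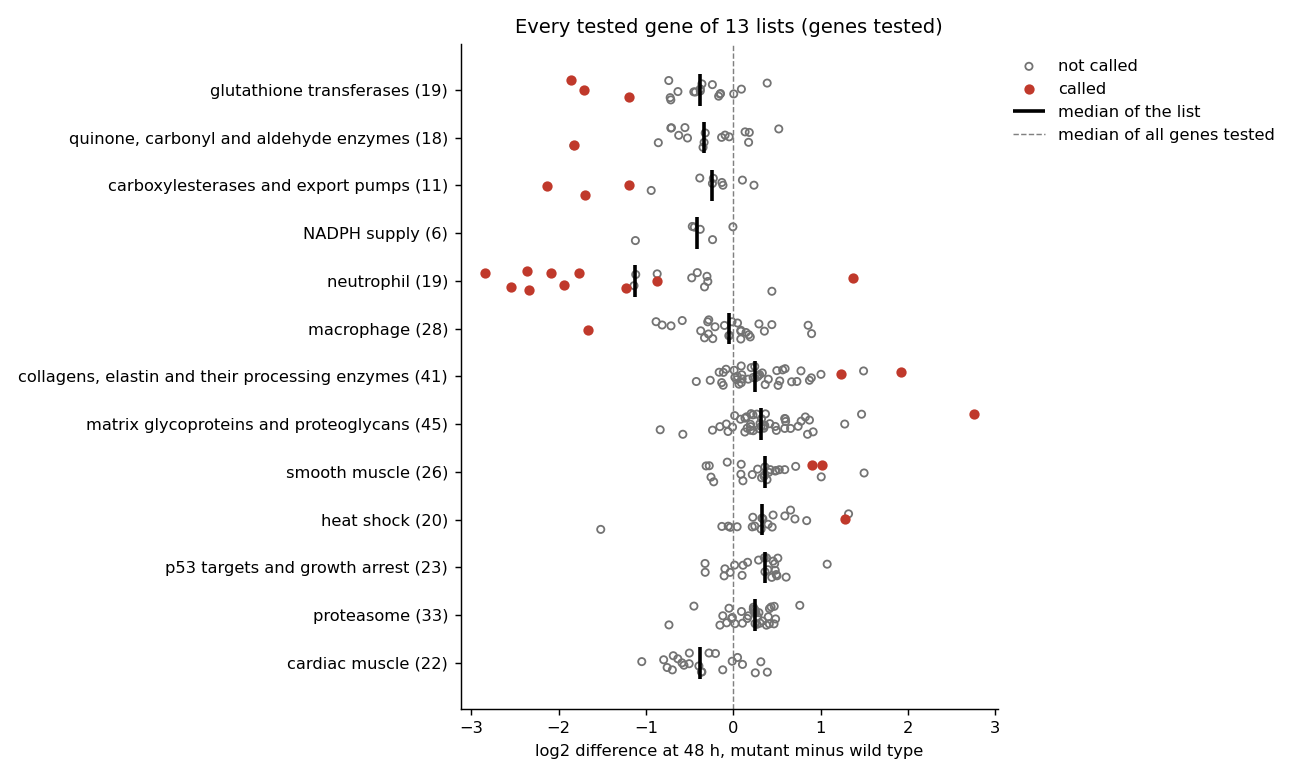
Log2 difference at 48 h, mutant minus wild type, of every tested gene in 13 lists, with the number tested in brackets; filled points are called genes, bars are list medians and the dashed line is the median of all 13404 genes tested. Neutrophil genes have a median of log2 -1.12 and smooth muscle genes one of log2 0.36.

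Matrix and smooth muscle genes lay on the higher side. Of 41 collagens, elastin and processing enzymes, 2 were called higher and 0 were called lower (median log2 0.25). Without overlap 22 were higher and 2 lower, against 21.8% and 22.1% of all genes. Eln, the elastic fibre protein elastin, had 19660 and 12550 in the mutant and 4730 and 3545 in wild type, 3.78-fold higher (log2 1.92 ± 0.29, adjusted p = 0.0226). Col3a1, the chain of type III collagen, had 5188 and 4677 in the mutant and 1901 and 2213 in wild type, 2.35-fold higher (log2 1.23 ± 0.16, adjusted p = 0.0103). Col1a1, a chain of type I collagen, had 7054 and 6719 in the mutant and 3530 and 3810 in wild type and was not called (log2 0.89 ± 0.18, adjusted p = 0.0712). Mfap5, a microfibril protein, had 1241 and 1638 in the mutant and 655 and 689 in wild type (adjusted p = 0.0535). On these brightest probe sets both mutant samples lay above both wild type samples in all 4 genes, and further probe sets of Mfap5 gave log2 0.69, -0.02 and -0.43, none of them called. The calls of Eln and Col3a1 rest on all 4 samples. The adjusted p reached 0.219 for Eln and 0.114 for Col3a1 with 1 left out, and of the list's genes 0 were then called, or 1 without mutant 1b.

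Of 45 matrix glycoproteins and proteoglycans, 1 was called higher and 26 were higher without overlap (median log2 0.32). Spon2, a secreted adhesion protein that also binds bacteria, had 1419 and 1814 in the mutant and 136 and 161 in wild type (log2 2.75 ± 0.30, adjusted p = 0.00155). The wild type signal was below the filter value of 210 for array C, so no fold is given. Spon2 stayed called whichever sample was left out, but its second probe set lay on the other side (log2 -1.12, adjusted p = 0.526). The extracellular sulfatase gene Sulf1, chosen after its values were seen, was called higher (log2 0.97 ± 0.18, adjusted p = 0.0426).

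Smooth muscle genes had the highest median of the lists tied to a cell type, log2 0.36 over 26 genes, with 2 called higher and 15 higher without overlap. Cnn1, the thin filament protein calponin, had 1417 and 1363 in the mutant and 686 and 608 in wild type, 2.03-fold higher (log2 1.02 ± 0.15, adjusted p = 0.0176). Tagln, transgelin, had 5216 and 4597 in the mutant and 2694 and 2480 in wild type (log2 0.90 ± 0.15, adjusted p = 0.0386). Acta2, smooth muscle actin, had 4069 and 4480 in the mutant and 1994 and 2178 in wild type and was not called (log2 1.01 ± 0.18, adjusted p = 0.0573), and a dim probe set of it on array C gave log2 -1.08. No smooth muscle gene was called with any 1 of the samples left out. The summed intensity of 20 smooth muscle genes on array A was 60130 and 60500 in the mutant and 44950 and 43940 in wild type, and that of 14 fibroblast and pericyte genes 44050 and 38260 against 39370 and 41220. Whether the share of smooth muscle or vessel wall in the tissue differed was not tested.

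Heat shock and immediate early lists each held genes called higher in the mutant. Without overlap, 15 of the 20 tested heat shock genes lay above wild type and 2 below, and 1 was called (median log2 0.33). Dnajb1, a co-chaperone of HSP70, had 5057 and 3975 in the mutant and 2021 and 1596 in wild type, 2.43-fold higher (log2 1.28 ± 0.18, adjusted p = 0.0159), while its probe set on array C was not called (log2 -0.09). Hspa1a, inducible HSP70 itself, has 2 probe sets. Its brighter probe set had 21570 and 16600 in the mutant against 8349 and 6788 in wild type and was not called (log2 1.32 ± 0.25, adjusted p = 0.06). Its dimmer one had 4694 and 4434 in the mutant against 806 and 933 in wild type and was called (log2 2.26 ± 0.29, adjusted p = 0.00464). Both genes were higher in the mutant at 0 h too, though the array C probe set of Dnajb1 overlapped. Dnajb1 then had 2037 on the 1 mutant array A and 830 and 846 in wild type. The brighter Hspa1a probe set had 2365 against 363 and 208, and the dimmer one 387 and 451 against 18.7 and 27.1. The near-identical gene Hspa1b had 13180 and 12370 in the mutant and 7371 and 8240 in wild type (log2 0.71 ± 0.17, adjusted p = 0.166), and cross-hybridisation between these genes cannot be told apart from their own signal.

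Of 27 immediate early genes, which are induced within minutes to hours of a stimulus, 2 were called higher, and 10 were higher and 5 lower without overlap (median log2 0.12). Atf3, a stress-induced transcription factor, had 2577 and 2700 in the mutant and 1113 and 1200 in wild type, 2.20-fold higher (log2 1.14 ± 0.15, adjusted p = 0.0101). Jun, a subunit of AP-1, had 3007 and 2771 in the mutant and 1406 and 1457 in wild type (log2 0.97 ± 0.17, adjusted p = 0.0407). Neither was called with any 1 sample left out (adjusted p up to 0.104 and 0.247), and Dnajb1 was called in 1 of the 4 cases. Phlda1, induced by growth factors and stress, had 3197 and 2356 in the mutant and 851 and 1037 in wild type (log2 1.47 ± 0.24, adjusted p = 0.0346), and lost its call likewise.

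Other genes called higher in the mutant than in wild type stood singly. Rprml had 2741 and 4216 in the mutant and 360 and 682 in wild type (log2 2.53 ± 0.33, adjusted p = 0.00464). At 0 h Rprml had 2928 and 2214 in the mutant and 2905 and 3910 in wild type, so it was the wild type signal that was lower at 48 h. Fbp2, the muscle form of the gluconeogenic fructose bisphosphatase, had 967 and 1105 in the mutant and 231 and 251 in wild type, 3.49-fold higher (log2 1.80 ± 0.22, adjusted p = 0.0054). Cdc42bpb, a kinase that acts on myosin downstream of CDC42, had 5370 and 6192 in the mutant and 2275 and 2111 in wild type, 2.54-fold higher (log2 1.35 ± 0.19, adjusted p = 0.00783), and a second probe set was not called (log2 0.35). Krt7, a keratin of simple epithelia, had 6092 and 6134 in the mutant and 3127 and 3105 in wild type (log2 0.95 ± 0.16, adjusted p = 0.0426), the called 1 of 16 alveolar type 1 genes, of which 11 were higher without overlap (median log2 0.26). Gp2 and Iqch were called higher from a wild type signal below the filter value (log2 2.05 and 1.77). In wild type, Iqch had 331 and 519 at 0 h and 124 and 98.5 at 48 h. In the mutant it had 327 and 566 at 0 h and 726 and 550 at 48 h. Adprhl2 and Lrrfip1 were called higher on dim probe sets (log2 1.57 and 1.35) and not on brighter ones (log2 0.15 and 0.19). Scn3a, on chromosome 2 but not on the list of Nfe2l2 neighbours, was called higher (log2 1.35 ± 0.25, adjusted p = 0.0391). A probe set of 2610005L07Rik, dim in wild type, was called too (log2 1.34 ± 0.24, adjusted p = 0.0366), and its other probe sets were not. Leaving out 1 sample took the adjusted p to as much as 0.0641 for Rprml, 0.0665 for Fbp2, 0.107 for Cdc42bpb and 0.252 for Krt7.

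**Figure D3:**
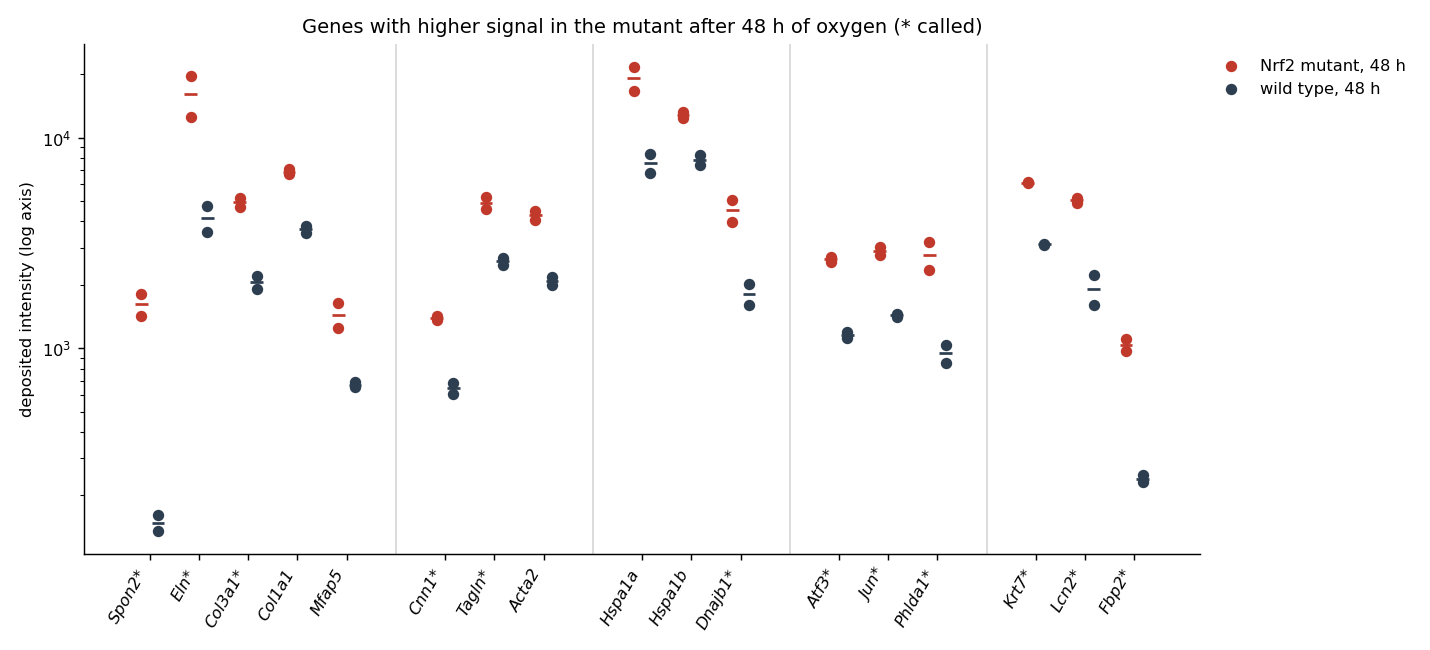
Deposited intensity (log axis) on each array after 48 h of oxygen of genes with higher signal in the mutant, mutant at the left (red) and wild type at the right (dark) of each gene; points are arrays, short lines are means of 2 arrays and a star marks a called gene. Col3a1 is at 5188 and 4677 in the mutant and at 1901 and 2213 in wild type, and Acta2 shows a similar gap without a call.

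Several other lists had no called gene. Of 23 p53 targets and growth arrest genes, 0 were called by limma, while 12 were higher without overlap (median log2 0.36). Cdkn1a, the p53-induced cell cycle inhibitor p21, had 5890 and 3828 in the mutant and 3828 and 3564 in wild type (log2 0.36 ± 0.20, adjusted p = 0.667). Of 33 proteasome subunits, 18 were higher without overlap (median log2 0.25), and of 35 endothelial genes 10 were higher and 14 lower without overlap (median log2 -0.04). Over all genes these shares were 21.8% higher and 22.1% lower. Cardiac muscle genes, which in lung come from the myocardial sleeves of pulmonary veins, had 14 of 22 lower without overlap (median log2 -0.38). Targets of hypoxia-inducible factor had 12 of 25 lower without overlap (median log2 -0.26), among them Bnip3, a mitochondrial autophagy receptor, with 413 and 311 in the mutant against 984 and 899 in wild type (log2 -1.22 ± 0.23, adjusted p = 0.0594). Surfactant and alveolar type 2 genes had a median of log2 0.05 over 20 genes, and cell cycle genes one of log2 -0.0074 over 38.

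Whether these differences were particular to 48 h was asked by testing the genotype difference at 48 h against that at 24 h and at 72 h. Against 24 h, 56 probe sets were called (0.209%), 47 with a lower (0.175%) and 9 with a higher (0.0336%) genotype difference at 48 h. Neutrophil genes led the 47. S100a8 had 11890 and 10280 in the mutant at 24 h against 4565 on the 1 wild type array of that time, so the mutant was higher then (log2 1.26 ± 0.18) and lower at 48 h. The 2 differences were apart by log2 -3.81 ± 0.23 (adjusted p = 0.000224). Mmp9 had 1955 and 1886 in the mutant at 24 h against 440 in wild type, and its differences were apart by log2 -4.04 ± 0.47 (adjusted p = 0.0088). Of the 19 neutrophil genes, 8 were called in this test, and the list's median was log2 0.64 at 24 h, -1.12 at 48 h and -0.74 at 72 h. In 46 of the 47 the mutant was higher at 24 h and lower at 48 h.

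At 24 h array A held 1 wild type sample, replicate 1b, on which every array A value of that time rests. Without it the test covers arrays B and C only and called 6 probe sets. None of the detoxification genes called at 48 h was called in the test against 24 h, among them Gpx2 (log2 -1.92 at 24 h and -2.34 at 48 h, adjusted p = 0.652 for the difference), Ces1f (log2 -2.79 and -2.13, adjusted p = 0.399) and Aldh1a7 (log2 -1.30 and -1.82, adjusted p = 0.59). These p-values do not show that the times are alike.

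**Figure D4:**
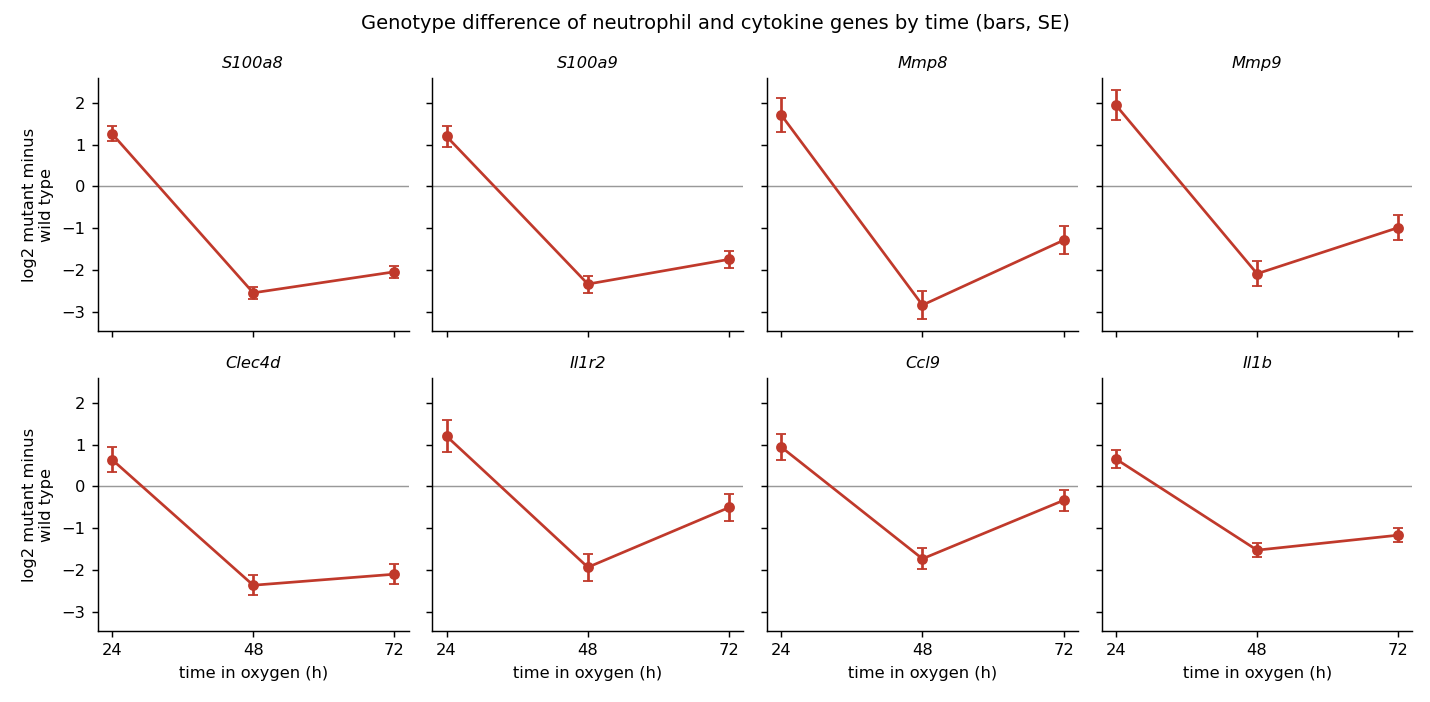
Log2 genotype difference, mutant minus wild type, of 8 neutrophil and cytokine genes at 24, 48 and 72 h of oxygen; points are limma estimates and bars their SE. Each gene is above 0 at 24 h and below 0 at 48 h, as S100a8 with log2 1.26 and -2.55, and all rest on 1 wild type array at 24 h.

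On the higher side, Spon2 differed between 48 h and 24 h by log2 3.23 ± 0.43 (adjusted p = 0.0105). It had 724 and 725 in the mutant and 1374 and 791 in wild type at 24 h. Before oxygen, at 0 h, Spon2 was already higher in the mutant, with 1145 and 1188 against 219 and 202 in wild type. The dimmer Eln probe set differed by log2 3.12 ± 0.41 (adjusted p = 0.016), while the brighter one was not called (log2 2.45 ± 0.47, adjusted p = 0.0848). The proteinase gene Adamts17, measured on array B with 2 samples in each group, lay on the lower side at 24 h and on the higher side at 48 h (log2 1.78 ± 0.24, adjusted p = 0.0088). It had 489 and 556 in the mutant and 1106 and 930 in wild type at 24 h, and 1523 and 1308 in the mutant and 627 and 698 in wild type at 48 h. Kif5b, a kinesin heavy chain gene, was called on 1 of its 4 probe sets (log2 2.98 ± 0.41), and the brightest of the others gave log2 -0.08.

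Between 72 h and 48 h, 9 probe sets were called (0.0336%), 8 with a higher (0.0298%) and 1 with a lower (0.00373%) genotype difference at 72 h. Edn1, the vasoconstrictor peptide endothelin 1, had 2238 and 2196 in the mutant and 3072 and 3633 in wild type at 48 h, against 4986 and 4987 in the mutant and 1801 and 1741 in wild type at 72 h. Its genotype difference at 72 h was log2 2.03 ± 0.21 above that at 48 h (adjusted p = 0.0104), and a second probe set gave log2 2.83 ± 0.42 (adjusted p = 0.0589). Ankrd37, a target of hypoxia-inducible factor, had 442 and 456 in the mutant and 555 and 463 in wild type at 48 h, against 2374 and 2163 in the mutant and 441 and 551 in wild type at 72 h (log2 2.09 ± 0.27 between the times, adjusted p = 0.0142).

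The probe sets called at 48 h can be followed to the other times, with the reserve that their 48 h values chose them. Of the 69 called lower, 33 were also below 0 at 24 h and 66 at 72 h, and their median was log2 0.016 at 24 h, -1.62 at 48 h and -1.22 at 72 h. Of the 32 called higher, 21 were above 0 at 24 h and 24 at 72 h, with medians of log2 0.23, 1.35 and 0.40. In the tests between times, 26 of the 69 and 6 of the 32 were called against 24 h, and 0 of the 69 and 1 of the 32 against 72 h. Nfe2l2, Xaf1, Cwc22, Gpx2, Ces1f and Marco had negative differences at 24, 48 and 72 h, although Xaf1 was low in both genotypes at 0 h. By contrast, S100a8, S100a9, Mmp8, Mmp9, Clec4d, Il1r2, Ccl9 and Il1b had a positive difference at 24 h and negative ones at 48 and 72 h.

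**Figure D5:**
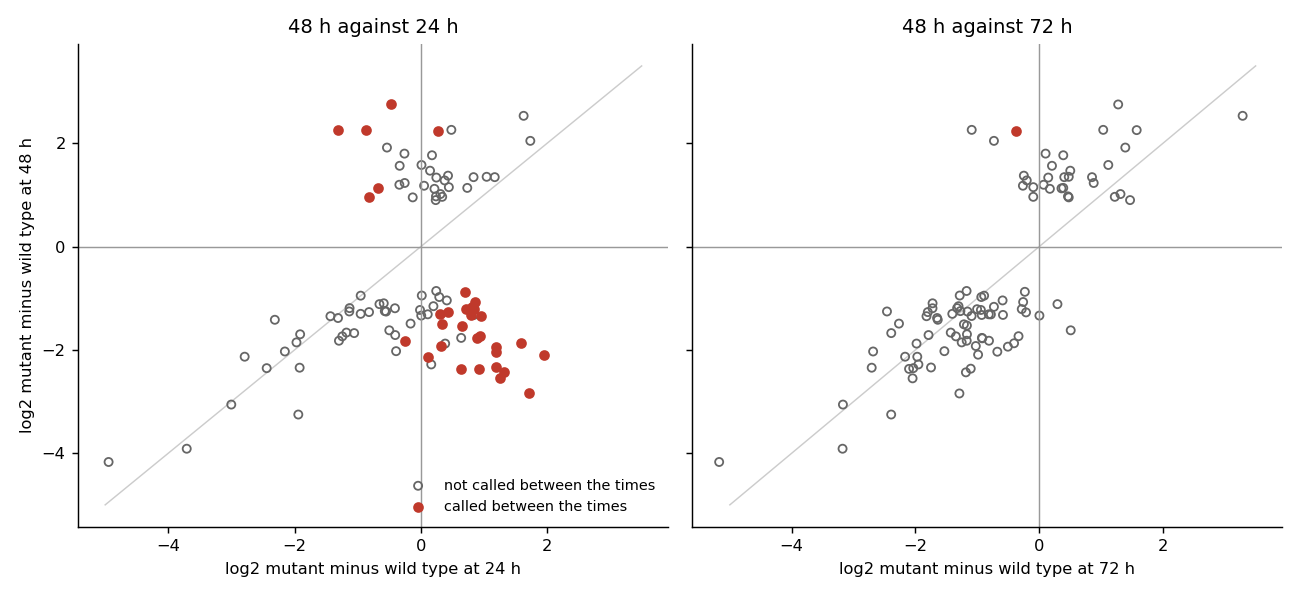
Log2 genotype difference at 48 h (vertical axis) of the 101 probe sets called at 48 h against that at 24 h (left) and at 72 h (right), mutant minus wild type; filled points were called in the test between the 2 times and the diagonal marks equal differences. Of the 69 below 0 at 48 h, 33 are below 0 at 24 h and 66 at 72 h.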

How the data were processed

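Deposited values are linear intensities, 1 for each probe set and array, which the authors had scaled so that the 2% trimmed mean of every array is close to 800 (seen in the values of the deposited tables: 800.18 to 800.44 at 48 h). Neither the software that made them nor a genome build is given in the sources used here. Arrays carry no read depth, and their small number limits the precision. Samples were grouped by genotype and hours of oxygen from the array titles, and probe sets were named through the platform annotation, with symbols updated by gene ID. Of 26821 probe sets tested, 21856 have 1 symbol, 546 several and 4419 none.

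Control probe sets were removed, the 25th percentile of the array type was added to each intensity and log2 was taken of the deposited intensities so shifted. A probe set was tested when at least 2 arrays lay above a filter value, the 40th percentile of the array type (196 for A, 273 for B and 210 for C). One limma fit (version 3.58.1, R 4.3.3) for each array type held a mean for every genotype and time, so the spread is shared by all groups. The differences at 48 h, 48 h minus 24 h and 72 h minus 48 h were tested, two-sided, with Benjamini-Hochberg adjustment over all 3 array types within each test. The procedure was tested on simulated data.

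Each gene of a list is counted by its brightest probe set on array A, else B, else C. The genes named were drawn from Nfe2l2 and the 15 called genes with the largest difference in each direction. Up to 4 genes with the smallest p of each list were added, and so were genes often reported in hyperoxia or for NRF2. The 6 largest called differences of each sign between times completed the draw, and not all genes drawn are shown. Others are said to have been chosen after their values were seen, or are shown as further members of a list. Members and lists were chosen with earlier results of these data known. No fold is given where a group lies below the filter value. Alternatives were quantile normalization, a floor set instead of an added value, no filter and a stricter one, a fit of only the groups compared, a fit without the mutant 0 h arrays, the replicate letter as a block, a trended and robust spread, adjustment within each array type, and each sample left out. Promoters come from RefSeq on GRCm38.p6, without chromosome 18.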

Additional observations from a re-analysis of the deposited data

Results flagged for a closer look

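A test of the difference itself set the genotype difference at 48 h apart from that at 24 h for the following named genes, with values in log2, mutant minus wild type at 48 h less the same at 24 h. The differences were -4.55 for Mmp8, -4.04 for Mmp9, -3.81 for S100a8 and -3.53 for S100a9. Probe sets of Csf3r gave -3.76 and -3.29, and those of Il1r2 gave -3.46 and -3.14. Slfn1 gave -3.23, Clec4d -3.01, Ccl9 -2.68, Ifitm6 -2.25, Il1b -2.18, Pla2g7 -1.84 and Selplg -1.57. All of these are measured on array A, where 1 wild type array stands for 24 h.

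On array B, with 2 samples in every group, Csf2rb gave -2.06, Ccr1 -2.01 (on another probe set than the one called at 48 h), Tlr13 -1.71 and F13a1 -1.58. On the higher side were Adamts17 (1.78, array B), Kif5b (2.98, array A), the dimmer probe set of Eln (3.12, array A) and Spon2 (3.23, array C).

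Between 72 h and 48 h, the genotype difference was larger at 72 h by 2.03 for Edn1 and by 2.09 for Ankrd37. No group held 4 or more arrays of a type, so single arrays were not tested as outliers.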

How the results depend on the processing

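The 101 calls at 48 h became 171 with a stricter filter, 171 with a trended and robust spread, 172 with adjustment within each array type and 22 in a fit of only the groups compared, of which 21 are among the 101. They numbered 30 to 42 with 1 of the 4 samples left out, fewest without wild type 1b. The 56 calls between 48 and 24 h became 91 with a stricter filter, 93 with a trended and robust spread and 12 in a fit of only the groups compared, and 6 to 53 with 1 sample left out, fewest without wild type 24 h 1b, which leaves arrays B and C. The 9 calls between 72 and 48 h became 26 with a stricter filter, 23 with a trended and robust spread, 16 with adjustment within each array type, 4 in a fit of only the groups compared, and 4 to 7 with 1 sample left out. The other alternatives kept these 3 counts within 1.5 times, except the block given next.

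The replicate letter as a block gave 124, 77 and 19 calls. Deviations of samples with the same letter correlated at 0.117, 0.128 and 0.0499 on A, B and C at 48 h, over 2 pairs, and the labels do not say that the letters pair the samples.

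No called difference of a named gene changed sign. Differences near 0 did: Scgb1a1 was 0.0906 after quantile normalization, and -0.294 to 0.267 with 1 sample left out (0.237 without wild type 1b). Ager ranged from -0.0559 to 0.471, Lrrfip1 on its brightest probe set from -0.00278 to 0.39, Mt2 from -0.211 to 0.1 and Sftpc from -0.0816 to 0.436 (-0.0305 without wild type 1a). Causes were not tested. With 1 sample left out, its lone partner is assumed to vary like the other groups. Signal limits the dim genes: 30 of the 101 calls have a group below the filter value, where a difference rests partly on the added value.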

Other observations

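Of the 9 cytochrome P450 genes measured by a probe set with 1 symbol, 4 were lower without overlap. The called probe set that 2 such genes share is not among them. Glucocorticoid-induced and clock genes had 13 of 22 lower and 4 higher without overlap, and 0 called (median log2 -0.29). Cell junction genes had 12 of 25 higher and 2 lower without overlap (median log2 0.21), and genes of TGF-beta and BMP signalling 12 of 34 higher and 5 lower (median log2 0.16), with 0 called in both. Of 19 fibroblast and pericyte genes, 10 were higher without overlap and 0 called (median log2 0.21). Airway secretory and ciliated genes had 9 of 21 lower and 3 higher without overlap (median log2 -0.15), with 0 called. Cell death regulators were nearly balanced, with 6 of 17 lower and 5 higher without overlap and 0 called (median log2 -0.17). Over all genes, 22.1% were lower and 21.8% higher without overlap.

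The 25 amino acid stress genes held 1 call, Atf3, which the immediate early genes also hold (median log2 0.11). The 12 metallothionein and acute phase genes held 1, Lcn2 (median log2 0.09), and the 13 genes of leukocyte adhesion held 1, Selplg (median log2 -0.06). Endoplasmic reticulum chaperones (20 genes, median log2 0.13), complement (16, -0.05), alveolar fluid transport (17, 0.0049), fatty acid handling (31, -0.05), squamous epithelium (19, 0.03), skeletal muscle (12, -0.18), fat (8, -0.27) and erythroid genes (5, 0.02) held 0 calls by limma.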
